A study of Cucumis sativus with 4 samples.

Results

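In cucumber leaves, 68 of 17585 measured genes differed at least 4-fold between the control libraries while they were steady between the CsTCP18a-RNAi libraries. These genes were chosen by measured values. A member had a log2 ratio of at least 2 in either direction between control replicates 1 and 2, a log2 ratio under 0.5 in either direction between RNAi replicates 1 and 2, an average RNAi level of 10 normalised CPM or more, and an average under 500 normalised CPM over all 4 libraries. Ratios were taken after adding 1 to each value, and the fold of 4 refers to values raised in this way. Normalised CPM means CPM, the reads of a gene scaled to a common library total, divided further by a scaling factor for each library. In 39 members control replicate 1 was the higher library, and in 29 members control replicate 2 was. Which library led more often turned with the scaling, since the rule on plain CPM found 27 genes with replicate 1 higher and 34 with replicate 2 higher.

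The first true leaf of Cucumis sativus was sampled from seedlings 20 days old, grown under days of 16 h (25 °C) and nights of 8 h (18 °C). All plants were transformants of the inbred line R1461, made with Agrobacterium strain GV3101. The control group (2 libraries, genotype labelled wild type) carried the empty PFGC-1008 vector, and the RNAi group (2 libraries) carried a construct with 402 bp of the CsTCP18a coding sequence. Whether replicates are different plants, pools of plants or transgenic lines is not stated in the labels. Every p-value below therefore rests on the spread between 2 libraries per group, and that spread may be technical.

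CsTCP18a is a TCP transcription factor related to BRANCHED1, which in other plants restrains the outgrowth of axillary buds. An RNA interference construct makes double-stranded RNA that the cell cuts into small RNAs, and these lower the matching transcript. The control pair shows how far a transcript differed between libraries without the RNAi construct, and such a difference may be technical. In plant leaves, transcripts that follow the time of day, light, wounding, pathogens or leaf age are known to vary between individuals of one genotype. Which of these a member might be could not be read here, since the deposited IDs carry no gene names and 0 of 17585 IDs matched the RefSeq gene table of cucumber. For the same reason neither the targeted gene nor any leaf marker was checked, and members are given by ID, level and pattern.

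The libraries held between 18930131 reads assigned to genes (control replicate 2) and 27664402 (control replicate 1). One read was worth between 0.0319 and 0.0573 normalised CPM. Replicate reads differed beyond sampling noise in both groups (chi-square divided by its degrees of freedom 96.1 in the control pair and 11.3 in the RNAi pair), so no library was taken as a copy of another.

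The size of the control difference was the criterion that few genes met. Of the 17585 genes, 134 had control libraries at least 4-fold apart, and 132 of these had a mean under 500. Of those 132 genes, 62 fell short of an RNAi mean of 10, which left 70. The RNAi libraries were steady in 68 of the 70, so the criterion of steadiness removed 2 genes. Seen from the other side, 11688 genes met the abundance and RNAi criteria, and the members were 0.582% of them. Their control log2 ratio had a median size of 0.21. It reached 1 in 565 genes (4.83%), of which 358 were higher in control replicate 1 and 207 in control replicate 2.

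The same rule with the groups exchanged found 0 genes. Here 8967 genes were steady between the control libraries and met the abundance criteria, and the largest log2 ratio between their RNAi libraries was 1.27. A ratio of at least 1 in size was seen in 6 of them (0.0669%). The rule for the members and its mirror image thus gave 68 and 0 genes, a description of these 4 libraries for which no test was made.

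**Figure D1:**
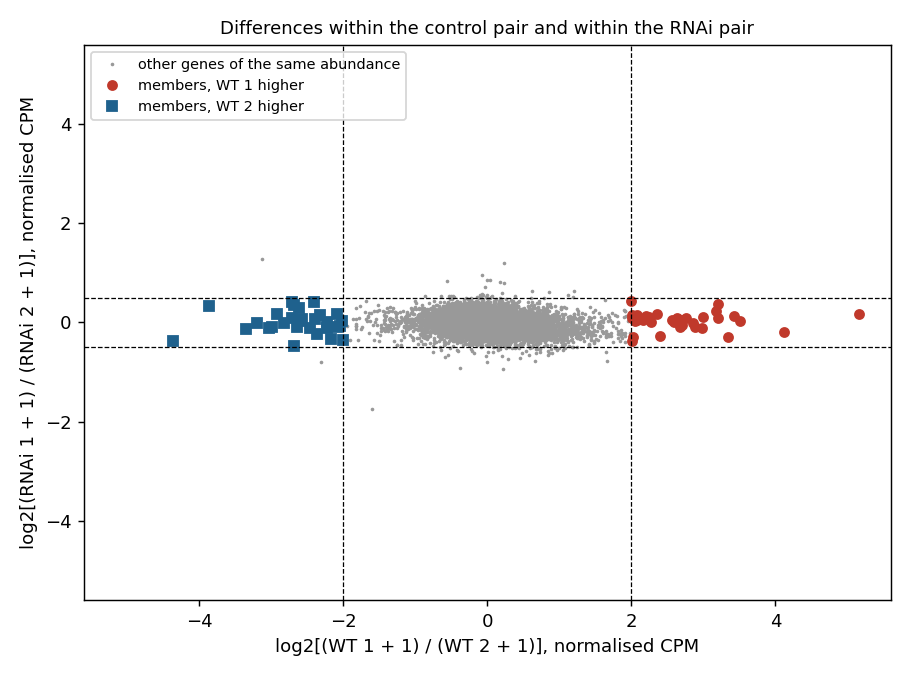
Log2 ratio between the control libraries (horizontal axis) against log2 ratio between the RNAi libraries (vertical axis), on normalised CPM + 1, for tested genes with an RNAi mean of at least 10 and an overall mean under 500. Red circles are the 39 members higher in control replicate 1, blue squares the 29 higher in control replicate 2, grey points the other genes, and dashed lines the limits of 2 and 0.5. The cloud is wide along the control axis and narrow along the RNAi axis.

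The members with the widest control difference are given first, 2 in each direction. Csa6G423390 had 137 normalised CPM in control replicate 1 and 2.86 in control replicate 2, against 34.9 and 30.7 in RNAi replicates 1 and 2. Both RNAi libraries lay inside the control range, and the control values differed 47.8-fold (95% counting interval 36.1 to 64.5, from 3128 and 50 reads). Csa7G039260 had 110.0 normalised CPM in control replicate 1 and 5.38 in control replicate 2, while RNAi replicate 1 had 21.1 and RNAi replicate 2 had 24.1. The RNAi values again lay between the control values, in both genes nearer to the lower one on a linear scale. These intervals (exact binomial, Clopper-Pearson) cover counting error only, and PCR copies are not independent molecules.

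In the other direction, Csa7G047420 had 4.07 normalised CPM in control replicate 1 and 103 in control replicate 2, with 41.8 and 54.7 in RNAi replicates 1 and 2. Its control values differed 25.3-fold (20.6 to 31.6), and both RNAi values fell between them. Csa3G076580 had 0.306 normalised CPM in control replicate 1 and 18.0 in control replicate 2, while the RNAi libraries had 41.3 and 32.7. Both RNAi values were above both control values, so this gene showed another order than the preceding genes. Only 7 reads stood behind its lower control value, and the 58.8-fold control ratio had a counting interval of 28.2 to 147.

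The criteria cut through a continuous range. The member closest to the control limit with replicate 1 higher was Csa4G286960, with a log2 ratio of 2.004 from 146 and 35.7 normalised CPM, and the closest gene outside was Csa4G280500, with 1.98 from 368 and 92.5. With replicate 2 higher, Csa6G449290 (84.4 and 341 normalised CPM in control replicates 1 and 2) lay just inside at a size of 2.001, and Csa7G430780 (10.97 and 46.0) just outside at 1.97. Genes on either side of the control limit thus had nearly equal ratios. For the RNAi ratio, the last member had a size of 0.473 and the first gene outside 0.790. For the RNAi mean, the values inside and outside were 10.1 and 8.53, and for the overall mean 227 and 527.

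As a group, the members higher in control replicate 1 had a median of 76.2 normalised CPM in that library (lowest 4.11, highest 338) and 10.7 in control replicate 2 (lowest 0.0573, highest 57.2). Their RNAi mean had a median of 41.9 and ranged from 11.0 to 408. The members higher in control replicate 2 were scarcer in the controls. Their median was 31.3 normalised CPM in control replicate 2 (lowest 5.50, highest 429) and 3.02 in control replicate 1 (lowest 0.219, highest 84.4). Their RNAi mean had a median of 38.3 and ranged from 10.1 to 425, close to that of the first set.

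Most lower control values rested on enough reads to be measured. The median was 142.5 reads over the 68 members, and 8 members had fewer than 20 reads in the lower control library. The smallest count belonged to Csa1G501850, singled out after its values were seen. It had 94 reads in control replicate 1 and 1 read in control replicate 2, against 2050 and 2301 reads in the RNAi libraries, and its 71.8-fold control ratio had a counting interval of 12.6 to 2864. The members made up a small part of the RNA, 0.344% of the reads in control replicate 1, 0.327% in control replicate 2, and 0.520% and 0.508% in the RNAi libraries. The control libraries reached similar totals through different genes. The members higher in replicate 1 gave 0.305% of the reads there and 0.0514% in replicate 2, and the others gave 0.0394% and 0.276%.

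**Figure D2:**
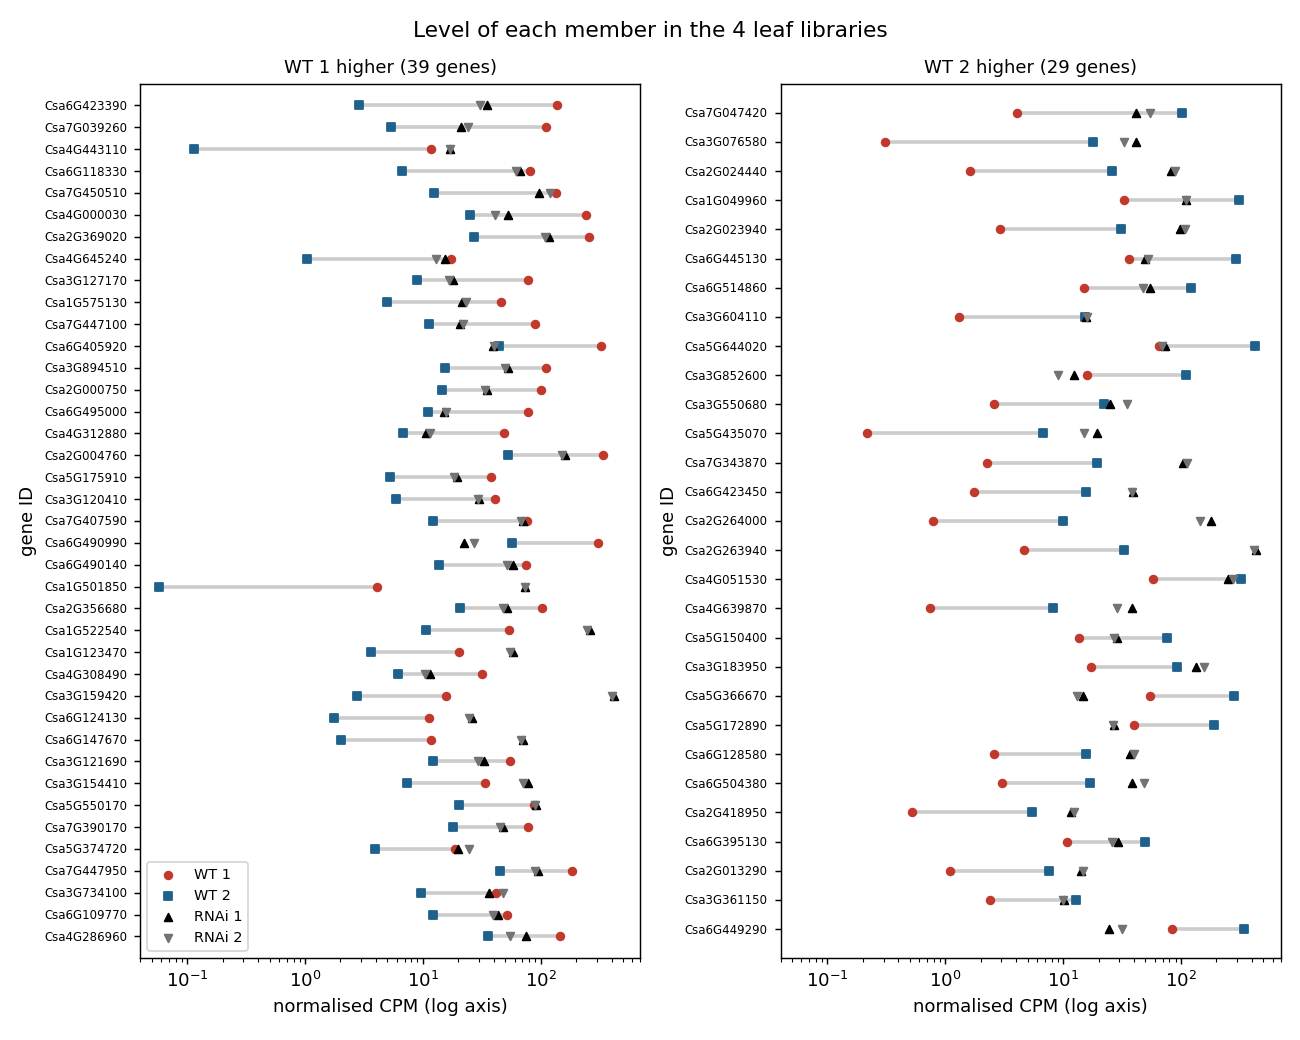
Normalised CPM (log axis) of all 68 members, 1 row per gene ID, in control replicates 1 (red circle) and 2 (blue square) and RNAi replicates 1 and 2 (triangles), with a grey line across the control range. The left panel holds the 39 genes higher in control replicate 1 and the right panel the 29 higher in control replicate 2, widest control difference at the top. The triangles lie close together in every row, mostly on the grey line at left and mostly to its right in the right panel.

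The RNAi values fell inside the control range for many members and above it for most of the others. Both RNAi libraries lay between the control libraries in 35 of the 68 members (51.5%), and in 1 further member the ranges overlapped in part. The groups did not overlap in 32 members (47.1%), against 83.6% of the 17491 genes tested. A wide control range leaves less room for separate groups, and the members were chosen for it, so the gap between these shares is no finding. Among the 32, both RNAi values were above both controls in 26 members (38.2% of the 68) and below in 6 (8.82%), against 42.8% and 40.8% of all genes tested. The required RNAi mean of at least 10, with no such floor on the controls, favours values above. In the other 11620 genes that met the abundance and RNAi criteria, RNAi was above in 45.7% and below in 38.8%.

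The place of the RNAi values was unevenly split over the directions, and no test of this split was made. With control replicate 1 higher, the ranges overlapped in 27 of 39 members (69.2%), RNAi was above in 10 and below in 2. With control replicate 2 higher, the ranges overlapped in 9 of 29 members (31.0%), RNAi was above in 16 and below in 4. The level of the lower control value moved with this split. Of the 27 members with a lower control value under 5 normalised CPM, RNAi was above in 7 of the 10 with replicate 1 higher and in 15 of the 17 with replicate 2 higher. Of the 41 with a lower control value of at least 5, RNAi was above in 3 of 29 and 1 of 12, and the ranges overlapped in 24 and 7. Every member had an RNAi mean of at least 10, so with a lower control value under 5 RNAi could not lie below the range. The counts of RNAi above in that class are thus partly set by the rule, and nothing is read from them.

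In genes with a somewhat smaller control difference the shares of the directions were closer to each other. Among the genes that met the other criteria and had a control log2 ratio between 1.5 and 2, the ranges overlapped in 23 of 66 (34.8%) with control replicate 1 higher and in 14 of 35 (40.0%) with control replicate 2 higher. RNAi was above in 34 of the former (51.5%) and 13 of the latter (37.1%). In the members the order was the reverse, with 25.6% and 55.2%. Between 1 and 1.5, the overlap was 28.9% of 253 genes and 21.0% of 143. The medians of the lower control value in the members were 10.7 and 3.02 normalised CPM, and between 1.5 and 2 they were 15.0 and 13.4.

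**Figure D3:**
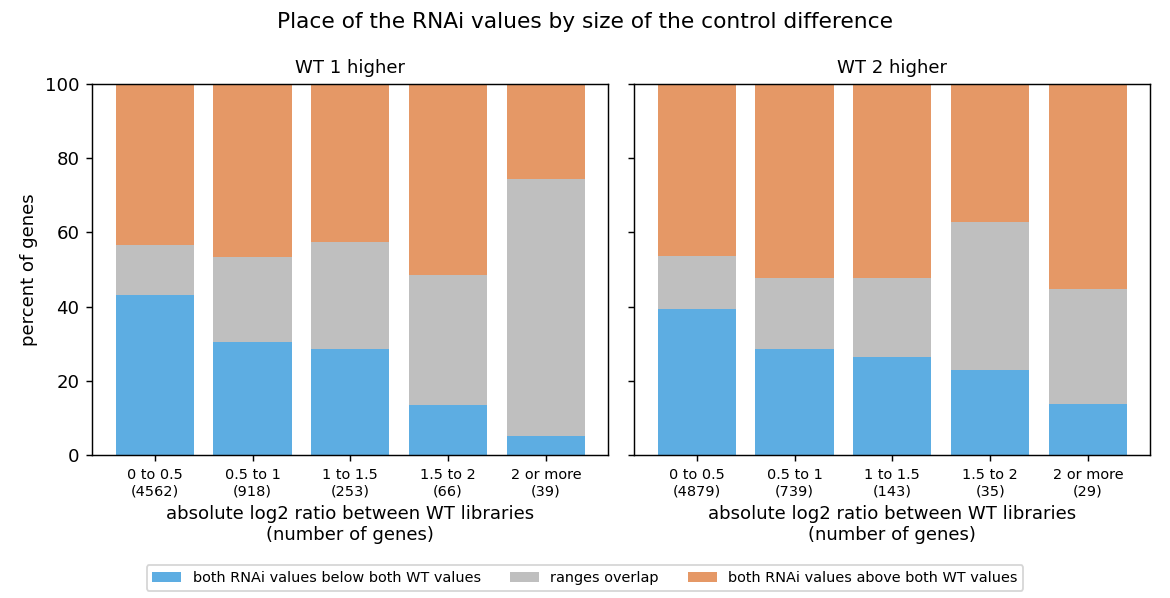
Percent of genes (vertical axis, from 0) whose RNAi values were both below the controls (blue), overlapped them (grey) or were both above (orange), by size of the control log2 ratio (horizontal axis, number of genes in brackets), for genes that met the abundance and RNAi criteria. The right-hand bar of each panel holds the members, with overlap in 69.2% when control replicate 1 was higher and in 31.0% when control replicate 2 was. With control replicate 1 higher the grey share grows from left to right, and part of this follows from the wider control range. With control replicate 2 higher it rises to 40.0% and then falls to 31.0% in the members.

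The comparison of RNAi with control leaves passed for few members, since it weighs a difference against the spread for which they were chosen. In limma's moderated test, fitted on all 17491 genes with Benjamini-Hochberg adjusted p under 0.05, 15 members were higher in RNAi against 31.0% of all genes, and 2 were lower against 29.5% of all genes. The other 51 did not pass, and their values may still differ. Members higher in control replicate 1 gave 7 of the higher calls and none of the lower ones. Members higher in control replicate 2 gave 8 of the higher calls and both lower ones. The median log2 change from control to RNAi was 0.80 over the members and 0.03 over all genes tested, with 0.47 and 1.75 in the sets higher in control replicates 1 and 2. All genes tested had no RNAi floor of 10. The other 11620 genes that met the abundance and RNAi criteria had that floor, and their median was 0.08. That ratio set the RNAi mean against the average of the control logs. The members were chosen for a wide control range besides the floor, so nothing is read from the gap, and its source was not tested. The calls depended on the model, with 7 higher and 3 lower members in edgeR's quasi-likelihood test on the recovered reads, which called 58.8% of all genes in either direction. When either RNAi library was left out, limma called 0 members at adjusted p under 0.05 and 4 at an unadjusted p under 0.05. The same fits called 23.4% (without RNAi replicate 1) and 25.3% (without RNAi replicate 2) of all genes. Their spread comes from the control pair alone, which the rule selected to be wide in the members.

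The 4 passing members detailed here lay well outside the control range. Csa1G501850, Csa2G264000, Csa6G147670, Csa2G023940, Csa2G024440 and Csa3G154410, named in other paragraphs, passed as well. Csa3G159420 had 15.8 and 2.75 normalised CPM in the control replicates and 415 and 400.4 in the RNAi replicates. The RNAi mean of 408 ± 10.5 (SD, n = 2) was 25.9 times the higher control, and the log2 change was 5.69 (SE 0.71, limma adjusted p = 0.00252). Csa2G263940 had 4.63 and 32.6 normalised CPM in the control replicates and 435 and 415 in the RNAi replicates, and its log2 change was 4.95 (SE 0.84, limma adjusted p = 0.00662). Both were higher than either control in both RNAi libraries, although the controls disagreed 5.74-fold for the first gene and 7.05-fold for the second. These genes had the highest RNAi means of the 2 sets.

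Csa5G366670 was lower in RNAi, with 14.6 and 13.2 normalised CPM in the RNAi replicates against 55.1 and 281 in the control replicates (log2 change -3.08, SE 0.76, limma adjusted p = 0.0218). Csa6G449290 had 24.4 and 31.5 normalised CPM in the RNAi replicates against 84.4 and 341 in the control replicates (log2 change -2.57, SE 0.67, limma adjusted p = 0.0249). Even the lower control was 3.96 times the RNAi mean for Csa5G366670. Without RNAi replicate 1 or without RNAi replicate 2, none of the 4 passing members detailed here kept its call. The log2 changes could move little in these fits, since the rule keeps the RNAi libraries under 0.5 log2 units apart. They moved for Csa3G159420 to 5.66 and 5.71 and for Csa2G263940 to 4.92 and 4.99. Those of Csa5G366670 moved to -3.15 and -3.01, and those of Csa6G449290 to -2.39 and -2.75. Without control replicate 1 or 2 they moved further, to 6.77 and 4.61 for Csa3G159420 and 3.66 and 6.24 for Csa2G263940. For Csa5G366670 they then became -4.24 and -1.91, and for Csa6G449290 -3.57 and -1.57. The widest members did not pass. Csa6G423390 had a log2 change of 0.55 (95% interval -3.82 to 4.92, limma adjusted p = 0.793), Csa7G039260 of -0.18 (-3.67 to 3.32, 0.918), Csa7G047420 of 1.09 (-2.62 to 4.80, 0.538) and Csa3G076580 of 2.92 (-0.37 to 6.22, 0.103). Csa4G286960, at the edge of the control limit, had a log2 change of -0.17 (-1.92 to 1.58, limma adjusted p = 0.837). These intervals include 0 as well as changes of more than 1 unit.

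For many members the direction of the difference from RNAi depended on which control library was used. Against control replicate 2 alone (the fit without replicate 1), 51 members were called higher and 12 lower in RNAi, against 36.0% and 33.7% of all genes. Against control replicate 1 alone, 32 were called higher and 28 lower, against 35.9% and 34.8% of all genes. In these fits a single control library is assumed to vary like the RNAi pair, which hardly varied, so the calls describe that library. The ratio of the controls, which chose the members, also sets how far the fits can differ.

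Calls of opposite direction against the controls were made for 29 members (42.6%) and for 143 of all 17491 genes (0.818%). With control replicate 1 higher this held for 23 of 39 members, and with control replicate 2 higher for 6 of 29. For 26 members the calls had the same direction against either control, 22 higher (32.4%) and 4 lower (5.88%) in RNAi, against 31.1% and 29.6% of all genes. A further 13 members (19.1%) were called against 1 control library only, against 17.4% of all genes. Opposite calls need controls that lie apart, the value that chose the members, so nothing is read from the shares of opposite calls. In 11 members the RNAi mean was at least 2-fold above one control and at least 2-fold below the other. This was on values raised by 1, and it held for 14 of all 17491 genes. It needs controls at least 4-fold apart, as the rule does. Csa6G423390 was 1 of these 11 members, with a log2 change of -2.03 against control replicate 1 and 3.13 against control replicate 2. Csa7G047420 was another, with 3.27 against replicate 1 and -1.09 against replicate 2.

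Neither control library was consistently the one nearer to RNAi. The RNAi mean was nearer to control replicate 1 on the log2 scale in 35 members and nearer to control replicate 2 in 33. Within the sets the nearer library was mostly the higher one. This held in 28 of the 39 members with replicate 1 higher and in 22 of the 29 with replicate 2 higher. The required RNAi mean of at least 10 favours the higher library where the lower control value is small. That value was under 5 normalised CPM in 27 members, and no like share was taken over other genes. The RNAi mean was within 2-fold of control replicate 1 in 20 members, within 2-fold of control replicate 2 in 15, and at least 2-fold from both in 33. Over the other 11620 genes that met the abundance and RNAi criteria, control replicate 1 was the nearer library in 48.4%.

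**Figure D4:**
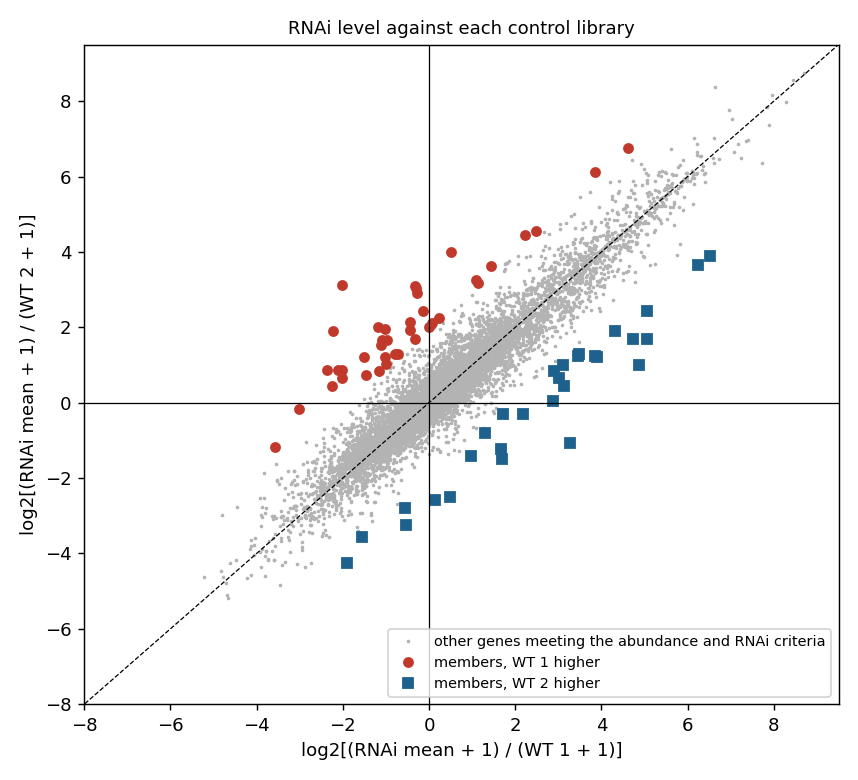
Log2 ratio of the RNAi mean to control replicate 1 (horizontal axis) and to control replicate 2 (vertical axis), on normalised CPM + 1. Red circles and blue squares are the 39 and 29 members, grey points the other 11620 genes that met the abundance and RNAi criteria, and the dashed line marks equal ratios. Members lie at least 2 units off the dashed line by the rule, and those in the upper left and lower right quadrants change direction with the control library.

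The members were spread over the ID prefixes Csa1 to Csa7. The prefix Csa6 held 16 members and Csa3 held 13, while Csa1 held 5. As a share of the genes that met the abundance and RNAi criteria, members ranged from 0.300% (Csa1) to 0.812% (Csa6), and 0 of 41 genes with the prefix for unplaced IDs, CsaUN, were members. No test of these shares was made.

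Genes next to a member by ID more often had the same control library higher than the other one. ID numbers of successive genes in the table differed by 10 in 69.1% of cases and by 500 in 7.13%, so a step of 10 misses some neighbours. No members had ID numbers 10 apart. The 84 tested genes with an ID number 10 above or below, next to 56 of the members, had a control log2 ratio of the same sign as the member in 54 cases (64.3%). In all 12030 pairs of tested genes 10 apart the share was 53.0%. The neighbour differed at least 2-fold in the member's direction in 12 of 84 cases (14.3%), against 3.44% over all such pairs taken in either order. Members have larger ratios than most genes, and strand or shared reads between overlapping genes or near-identical copies could not be examined in this table, so these shares are a description. The files do not state that the ID order is the order on the chromosome.

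Of the 14 neighbours that differed at least 2-fold between the controls, 12 went along with the member. The following stretches were picked after their values were seen, and they include the neighbours that went against it. Csa6G445130, a member, had 36.4 and 295 normalised CPM in control replicates 1 and 2, and its neighbours on both sides were also higher in replicate 2. Csa6G445120 had 208 and 559 normalised CPM there, and Csa6G445140 had 251 and 892. The 3 genes differed in the RNAi leaves, with 49.2 and 53.0 normalised CPM for the member, 240.5 and 232 for Csa6G445120 and 94.9 and 104 for Csa6G445140. RNAi was thus inside the control range for the member and Csa6G445120 and below it for Csa6G445140. Beside Csa6G147670, which was higher in control replicate 1 (log2 ratio 2.08), Csa6G147660 was higher in replicate 2 (log2 ratio -1.64, from 4.63 and 16.6 normalised CPM). Csa4G286950, next to Csa4G286960, also went against the member, with a log2 ratio of -1.35. That ratio came from 0.131 and 1.89 normalised CPM, and the lower value was worth 3 reads. Csa4G286970, on the other side of the same member, went along with it at 1.41.

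Some members followed each other directly in the table once it was sorted by ID, although their numbers were not 10 apart. Csa2G023940 and Csa2G024440 (500 apart) were both higher in control replicate 2, with log2 control ratios of -3.04 and -3.35. Csa2G023940 had 98.8 and 107 normalised CPM in the RNAi libraries and Csa2G024440 had 81.8 and 89.3, above both controls in each gene. Csa3G154410 and Csa3G159420 (5010 apart) were both higher in control replicate 1, with log2 control ratios of 2.05 and 2.16, and again lay above both controls in RNAi. Genes outside the table may lie between them.

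Members close to each other by ID did not always vary together. In 5 pairs of members the ID numbers lay within 1000 of each other, and in 4 of these pairs the same control library was higher. Csa2G263940 and Csa2G264000, 60 apart, were both higher in control replicate 2 and far higher in RNAi. Csa2G264000 had 0.787 and 9.91 normalised CPM in the controls and 179 and 145 in RNAi. Csa6G423390 and Csa6G423450, also 60 apart, went opposite ways. The first was higher in control replicate 1 (above). Csa6G423450 had 1.75 normalised CPM in control replicate 1 and 15.8 in control replicate 2, with 39.4 and 38.6 in the RNAi libraries. The direct neighbour Csa6G423400 went along with Csa6G423390, with 19.0 and 2.86 normalised CPM in control replicates 1 and 2 (log2 ratio 2.37). With 2.53 and 2.14 in the RNAi libraries it missed the RNAi mean of the rule. Csa6G423380, on the other side of Csa6G423390, hardly differed between the controls (log2 ratio 0.05).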

How the data were processed

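RNA of 4 leaf libraries was sequenced, and the submitters' processing notes name TopHat and HTSeq, with no version. Genome build, strand setting and scaling method: not given in the sources used here. The authors deposited 1 table of a normalised signal per gene, named CPM. Each deposited column holds whole multiples of 1 step (100% of values whole to within 0.01 read), so reads were recovered. TMM factors of these reads (0.827, 0.9225, 1.1499 and 1.1398) equal those implied by the column totals, hence "normalised CPM". A count of 0 allows up to 0.172 normalised CPM at most.

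Values were used as deposited. The group test was limma 3.58.1 (R 4.3.3) on log2(normalised CPM + 1) with its trend option, for 17491 genes with at least 1 in at least 2 libraries, all 68 members included, without a replicate block. The pseudocount understates changes of scarce genes. Alternatives used edgeR 4.0.16 and DESeq2 1.42.0 on recovered reads, other settings, and each library left out. The fit was tested on simulated data. The members and lists were chosen with earlier results of these data known. IDs were named by rule: the 2 widest control ratios, the closest to the control limit and the highest RNAi mean in each direction, members with ID numbers 10 apart (none existed), and the largest rise and fall that passed. Planned lists of named marker genes were not tested, since no ID had a name.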

Additional observations from a re-analysis of the deposited data

How the results depend on the processing

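The number of members with control replicate 1 and 2 higher moved with the limits of the rule. It was 21 and 14 with a pseudocount of 5, 105 and 64 with a control log2 ratio of at least 1.5, and 8 and 5 with at least 3. The other rule settings gave between 53 and 79 members in all, and no member changed direction. With plain CPM 27 genes were higher in control replicate 1 and 34 in replicate 2, 56 of them shared with the 68. The mirrored rule found 0 genes under each setting tried. The rule has no value without one of its libraries.

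Members higher and lower in RNAi numbered 7 and 3 with edgeR (5181 and 5100 of all genes) and 12 and 4 with DESeq2 (5131 and 5237). With 1 library left out, higher members ranged from 0 to 51 and lower members from 0 to 28. Over all genes the higher calls then ranged from 2242 to 6295 and the lower calls from 1854 to 6091. With plain CPM, 7600 genes were higher and 3478 lower (68.6% higher against 51.2%), and the median log2 change of all genes moved from 0.03 to 0.39. With a replicate block 20 members were higher and 3 lower, against 4900 and 4724 of all genes. Across genes the differences between replicates 1 and 2 had a Pearson correlation of -0.094 between the groups, so equal numbers were not taken as pairs.

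The log2 change of Csa6G423390 was -1.09 with edgeR, -1.10 with DESeq2 and from -2.03 to 3.13 with 1 library left out. For Csa7G047420 it was -0.14, -0.16 and from -1.09 to 3.27. Csa7G039260 gave 0.20 with plain CPM and from -2.24 to 1.88 with 1 library left out, and Csa4G286960 0.21 and from -1.18 to 0.83. The 4 passing members given with their log2 changes lost their calls when either RNAi library was left out. Their direction could not turn there, since the rule keeps the RNAi libraries under 0.5 log2 units apart. Depth limits the ratios of members with few reads in the lower control library.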
